A study of Mus musculus with 2 samples.

Results

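Haem and iron handling was followed through Hmox1, Blvrb, Fth1, Ftl1, Slc40a1, Slc11a1 and Trf across the cell lineages captured from the mouse colon. The genes were chosen by name, with earlier results of these data known, and make up 7 of the 32285 genes listed in each matrix. CD45+ cells of the gut lamina propria, the tissue under the epithelium, were profiled with the 10x single-cell 3′ assay giving 2 libraries, labelled CD163_NC and CD163_FL, each the single library of its group. The title speaks of WT animals and of animals deficient in CD163+ macrophages. No label ties either library to either genotype, so the label names are kept and no genotype is assigned. Strain, age, treatment, the way the macrophages were removed and the number of mice behind each library are not given. CD45 marks blood-derived cells and dead cells were stained out with 7-AAD. Epithelial cells (279 in CD163_NC and 89 in CD163_FL) and fibroblasts (4 and 59), which are not blood-derived, were also found among the kept cells.

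Haem released from ageing red cells is opened by haem oxygenase, which frees iron and leaves biliverdin for the biliverdin reductases. The freed iron is stored inside the ferritin shell, carried out of endosomes by divalent metal transporters, or exported through ferroportin to transferrin, which carries it in plasma. Macrophages are the main site of this recycling. Ferritin and ferroportin messages carry an iron-responsive element, a stem-loop in the 5′ untranslated region through which iron regulatory proteins block translation when iron is scarce, whereas the same element in the transferrin receptor message protects it from decay. Transcript counts therefore show only a portion of the control of these proteins.

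The element is shown because its letters were found in only some of the members. The protein of any member can change while the transcript does not, so the letters do not divide the members in that way. The motif searched was CNNNNNCAGTGN followed by 5 bases able to pair with the NNNNN, with G-T pairs allowed, on the transcript strand of GENCODE gene models of GRCm38. Capitals mark the bulged C and the CAGTGN loop. Each window holds 30 bases and lies within 1 exon.
Fth1, 5′ untranslated region, chr19:9982732-9982761, plus strand: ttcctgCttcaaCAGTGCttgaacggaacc
Ftl1, 5′ untranslated region, chr7:45459778-45459807, minus strand: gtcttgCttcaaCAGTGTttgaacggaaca
Slc40a1, 5′ untranslated region, chr1:45925464-45925493, minus strand: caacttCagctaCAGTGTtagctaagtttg
Tfrc, the transferrin receptor, first of 4 matches in the 3′ untranslated region, chr16:32631219-32631248, plus strand: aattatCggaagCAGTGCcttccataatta
The motif was found in 0.123% of 47199 annotated 5′ untranslated regions and in 0.462% of 43743 3′ untranslated regions. It was not found in the untranslated regions of Hmox1, Blvrb, Slc11a1 or Trf, nor in those of Slc11a2, which was searched as well. This says only that these letters are not in those models. A match is a description of the letters and not a measured site.

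The genes lie on GRCm38 at chr8:75093621-75100589 (Hmox1), chr7:27447978-27466144 (Blvrb), chr19:9980598-9985098 (Fth1), chr7:45457944-45459884 (Ftl1), chr1:45908068-45926523 (Slc40a1), chr1:74375195-74386062 (Slc11a1) and chr9:103204001-103230444 (Trf). All 7 are annotated as protein coding. Ftl1 has a near-identical copy, Ftl1-ps1, whose transcript matches that of Ftl1 at 99.6% of 910 aligned bases and holds the same 30-base window. How reads that match both were counted is not given, so the level of Ftl1 is uncertain by an unknown amount. Ftl1-ps1 itself stood at 40.7 and 39.7 CPM in mononuclear phagocytes of CD163_NC and CD163_FL.

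Levels are given in CPM, the UMIs (unique molecular identifiers, 1 per captured transcript end) of a gene over all UMIs of the cells of a lineage on the counts-per-million scale, in CD163_NC and then CD163_FL, with exact 95% Poisson intervals that cover counting error only. Kept were 9756 cells with 89553934 UMIs of CD163_NC and 13715 cells with 118203379 UMIs of CD163_FL, with medians of 6040 and 6462 UMIs per cell. Lineages are marker gates, and a cell needed at least 3 UMIs from at least 2 markers of a list. In all, 8 gates held at least 50 cells in both libraries, among them mononuclear phagocytes (551 and 1166 cells), led by Cd14, Clec4e and Thbs1. The 2 libraries shared 49 barcodes. CD163_NC held 273 cells in the neutrophil gate against 13 in CD163_FL, and its other gates carried neutrophil transcripts: the 7 neutrophil markers summed to 802 CPM in T lymphocytes of CD163_NC and to 6.42 in CD163_FL. Cd163 itself gave 4 UMIs in mononuclear phagocytes of CD163_NC and 1 in those of CD163_FL, too few to check either label.

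Fth1, Ftl1 and Slc11a1 were highest in mononuclear phagocytes in both libraries, above every other gate of at least 50 cells. Hmox1 was highest there in CD163_NC and overlapped with fibroblasts in CD163_FL. Trf was shared between mononuclear phagocytes, plasma cells and natural killer cells, Blvrb was highest in B cells of CD163_NC, and Slc40a1 was almost absent from mononuclear phagocytes. The 7 genes thus did not share 1 order of lineages.

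**Figure D1:**
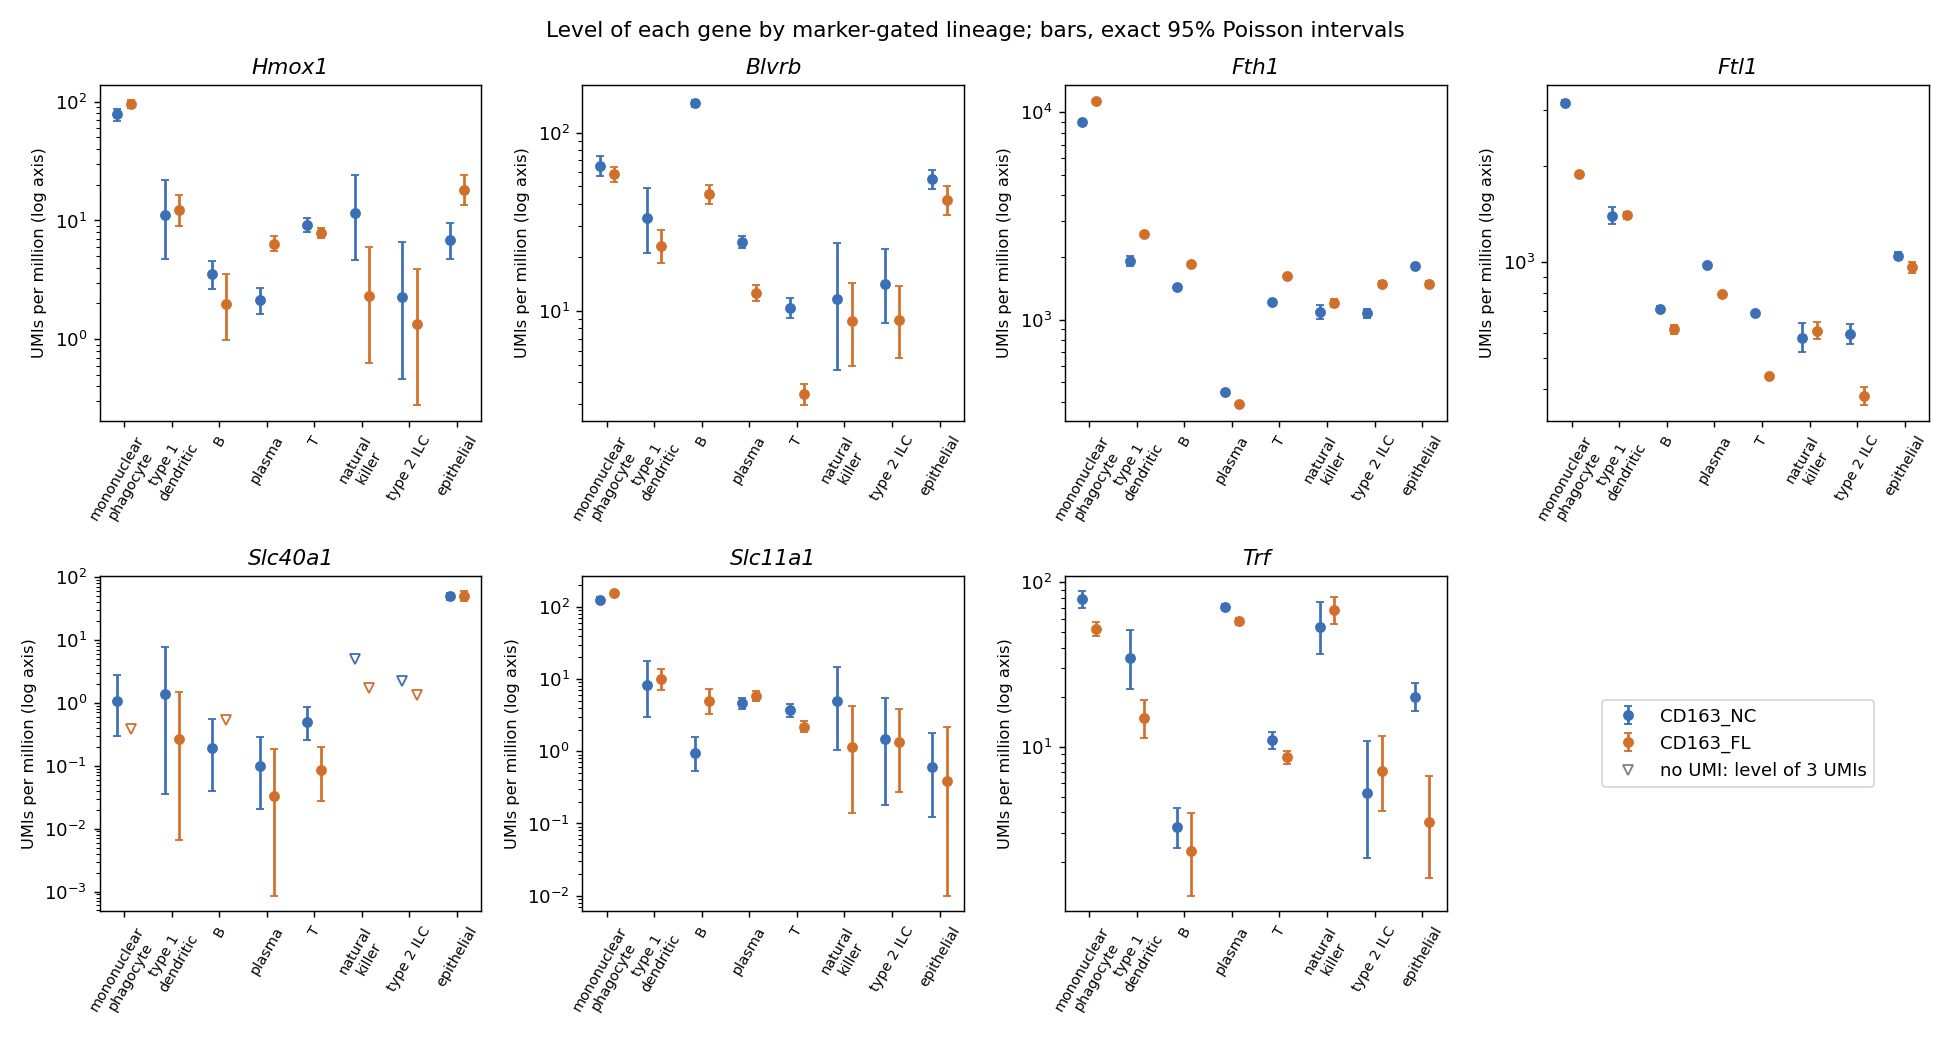
CPM (log axis) of each of the 7 genes in the 8 lineages with at least 50 cells in both libraries, CD163_NC in blue and CD163_FL in orange, with exact 95% Poisson intervals; open triangles stand at the level of 3 UMIs where no UMI was found. Fth1, Ftl1 and Slc11a1 are highest in mononuclear phagocytes, Slc40a1 in epithelial cells and Blvrb in B cells of CD163_NC.

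Hmox1 encodes the inducible haem oxygenase, the enzyme that opens the haem ring. It stood at 78.2 CPM in mononuclear phagocytes of CD163_NC (69.4 to 87.7) and at 95.9 in those of CD163_FL (89.1 to 103). A UMI was found in 28.5% and 24.4% of these cells, against 5.01% and 5.21% of T lymphocytes, at medians of 6893 and 6290.5 UMIs in the phagocytes and 5625 and 6659 in the T lymphocytes. After each cell was thinned to 1000 UMIs the shares were 5.13% and 6.26% in phagocytes and 0.98% and 0.768% in T lymphocytes. The phagocyte shares were thus several times those of T lymphocytes at equal depth. The transcript was uneven between cells: the 10 cells with the most UMIs held 23.97% of all Hmox1 UMIs in CD163_NC and 24.2% in CD163_FL, where a single cell held 61. In CD163_NC neutrophils came next at 20.7. In CD163_FL fibroblasts stood above the phagocytes at 119 (90.3 to 154, 59 cells), with overlapping intervals, and 10 of their cells held 93.1% of the UMIs. Mast cells of CD163_FL came after the phagocytes at 34.8 (20.9 to 54.3, 61 cells). Hmox1 was low in B cells (3.52 and 1.97) and in type 2 innate lymphoid cells (2.25 and 1.34).

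Blvrb encodes biliverdin reductase B, which acts after haem oxygenase and also reduces flavins. It stood at 65.0 CPM in mononuclear phagocytes of CD163_NC (57.1 to 73.8) and at 58.3 in those of CD163_FL (53.1 to 63.9), and the intervals overlapped. In CD163_NC it was higher in B cells, at 146 (140 to 152, 2206 cells), while B cells of CD163_FL stood at 45.2 (39.8 to 51.2, 1118 cells). Epithelial cells stood at 54.6 and 41.8, and mast cells (107 and 69.6, 43 and 61 cells) stood among the highest in both libraries.

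Fth1 and Ftl1 encode the heavy and light chains of ferritin, of which the heavy chain oxidises iron and the light chain helps to form the mineral core. Fth1 stood at 8996 CPM in mononuclear phagocytes of CD163_NC (8900 to 9092) and at 11381 in those of CD163_FL (11306 to 11456). Every other lineage of at least 50 cells in both libraries stood far below, from 448 in plasma cells to 1924 in type 1 dendritic cells in CD163_NC and from 393 to 2588 in the same lineages in CD163_FL. Ftl1 stood at 3169 in mononuclear phagocytes of CD163_NC (3112 to 3226) and at 1887 in those of CD163_FL (1856 to 1918). Of the 8 lineages it was lowest in natural killer cells of CD163_NC (579) and in type 2 innate lymphoid cells of CD163_FL (379). Between single phagocytes the share of UMIs from Fth1 ran from 0 to 4.57% with a median of 0.515% in CD163_NC, and from 0 to 5.26% with a median of 0.831% in CD163_FL. The share from Ftl1 had medians of 0.241% and 0.140%. Fth1 was thus higher and Ftl1 lower in the median phagocyte of CD163_FL, as in the sums.

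The balance of the chains was read as Fth1 UMIs per Ftl1 UMI. The assay counts 1 end per transcript, so no length was divided out, and capture can differ between the transcripts, so the ratio is used only between lineages and libraries. In mononuclear phagocytes it was 2.84 (2.78 to 2.90) in CD163_NC and 6.03 (5.93 to 6.14) in CD163_FL, 2.12-fold higher. T lymphocytes went from 1.76 to 3.70, 2.11-fold higher, and type 2 innate lymphoid cells from 1.80 to 3.94, 2.19-fold higher. B cells went from 2.03 to 3.03 and type 1 dendritic cells from 1.38 to 1.85. The ratio moved less in natural killer cells (1.89 and 1.98, with overlapping intervals), in plasma cells (0.459 and 0.497) and in epithelial cells (1.73 and 1.54). Plasma cells were the only one of the 8 lineages with more light-chain than heavy-chain UMIs, in both libraries.

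**Figure D2:**
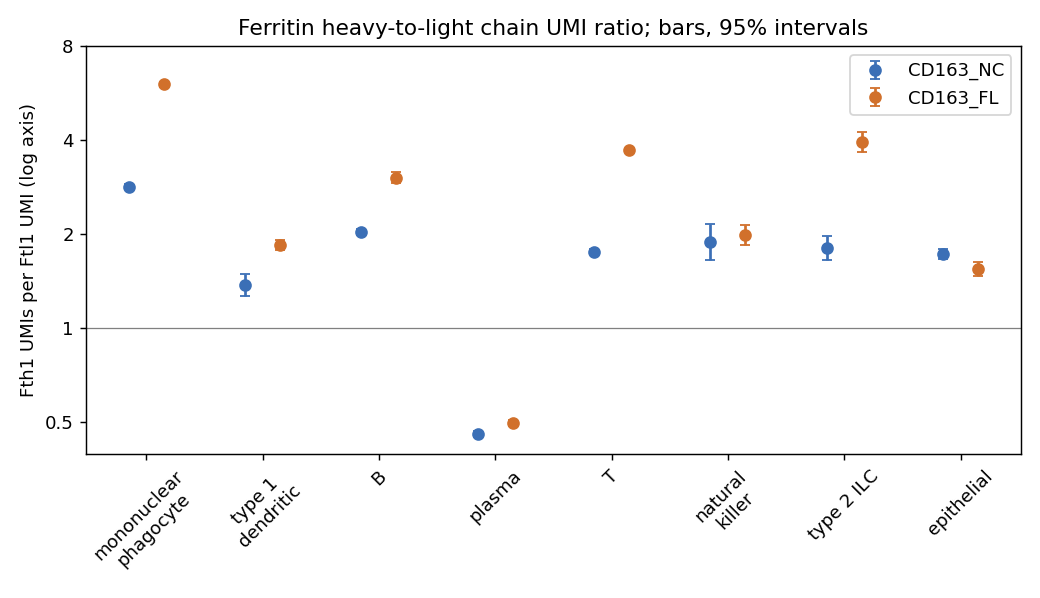
Fth1 UMIs per Ftl1 UMI (log axis) in 8 lineages, CD163_NC in blue and CD163_FL in orange, with 95% intervals; the grey line marks equal UMIs. The ratio is higher in CD163_FL in mononuclear phagocytes (2.84 to 6.03), T lymphocytes and type 2 innate lymphoid cells, and plasma cells lie under 1 in both libraries.

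Slc40a1 encodes ferroportin, the only known iron exporter of mammalian cells. In mononuclear phagocytes it gave 4 UMIs in 2 of 551 cells of CD163_NC, or 1.07 CPM, and 0 UMIs in 1166 cells of CD163_FL, where the exact upper limit was 0.476 CPM. Shares of cells with a UMI, 0.363% in phagocytes against 0.332% in T lymphocytes of CD163_NC, were at the background set by T lymphocytes, so expression in phagocytes was not detectable at this depth. The transcript was measured elsewhere. Epithelial cells held 49.2 CPM in CD163_NC (43.2 to 55.8) and 50.4 in CD163_FL (42.1 to 59.8), with no separation of the libraries. In CD163_NC neutrophils held 84.2 (70.0 to 101, 273 cells) with a UMI in 25.6% of cells, and granulocyte progenitors held 29.97 (22.5 to 39.1, 98 cells). In CD163_FL fibroblasts held 26.7 (14.2 to 45.6, 59 cells). Too few neutrophils were kept in CD163_FL for the libraries to be compared.

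Slc11a1 encodes Nramp1, the metal transporter of phagosome membranes, and was the member most restricted to phagocytes. It stood at 126 CPM in mononuclear phagocytes of CD163_NC (115 to 138) and at 158 in those of CD163_FL (149 to 167). A UMI was found in 43.7% and 49.3% of these cells, against 1.63% and 1.27% of T lymphocytes, and in 11.8% and 12.9% of phagocytes after thinning against 0.252% and 0.189% of T lymphocytes. Neutrophils of CD163_NC came next at 26.2 (18.6 to 36.0), then type 1 dendritic cells at 8.27 and 9.95. The remaining lineages with at least 50 cells in both libraries stood at 5.82 or less.

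Trf encodes transferrin, the carrier of iron in plasma, which is made mostly by the liver. In mononuclear phagocytes it stood at 78.7 CPM in CD163_NC (70.0 to 88.2) and at 52.1 in CD163_FL (47.2 to 57.5). Plasma cells stood at 70.2 (67.3 to 73.2) and 57.8 (55.1 to 60.6), with a UMI in 55.6% and 51.8% of cells at medians of 17872 and 17517.5 UMIs. Natural killer cells stood at 53.2 (36.4 to 75.1) and 67.5 (55.8 to 81.0). In CD163_NC these 3 lineages overlapped in sequence, each with the next, and in CD163_FL natural killer cells, fibroblasts (61.5), plasma cells and mononuclear phagocytes did so too. An unnamed cluster led by Dscam, Il22 and Zmat4, whose leading genes also lead the gate of type 3 innate lymphoid cells, held 65.5 (89 cells) and 126 (163 cells). That gate itself stood at only 17.6 (3.63 to 51.4, 23 cells) and 20.4 (9.33 to 38.7, 78 cells), so the cluster's level is not that of the gate. B cells (3.27 and 2.33) were at the low end.

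Each lineage was then compared between the libraries as the log2 ratio of CD163_FL over CD163_NC with an exact conditional binomial 95% interval. A gene was called higher or lower where at least 20 UMIs were found over both libraries and the interval lay wholly beyond 1.5-fold. With 1 library per group this compares 2 libraries and not 2 conditions, and library, mouse and genotype cannot be told apart. In mononuclear phagocytes the median ratio over all 11277 genes tested was -0.28, so ratios are to be read against that shift, and 8.59% of genes were called higher and 17.0% lower. Of the 7 members 6 were tested there, 0 were called higher and 1, Ftl1, was called lower, a share near that background. Ftl1 had a ratio of -0.75 (-0.78 to -0.71), Trf -0.59 (-0.81 to -0.37), Blvrb -0.16 (-0.39 to 0.07), Hmox1 0.29 (0.10 to 0.49), Slc11a1 0.33 (0.17 to 0.48) and Fth1 0.34 (0.32 to 0.36). With the ratios centred on the median over all genes Ftl1 moved to -0.46 and was no longer called, Fth1 moved to 0.62 and was called higher, and Blvrb changed sign to 0.13. The difference between the ferritin chains does not depend on that centring, since both chains share it.

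**Figure D3:**
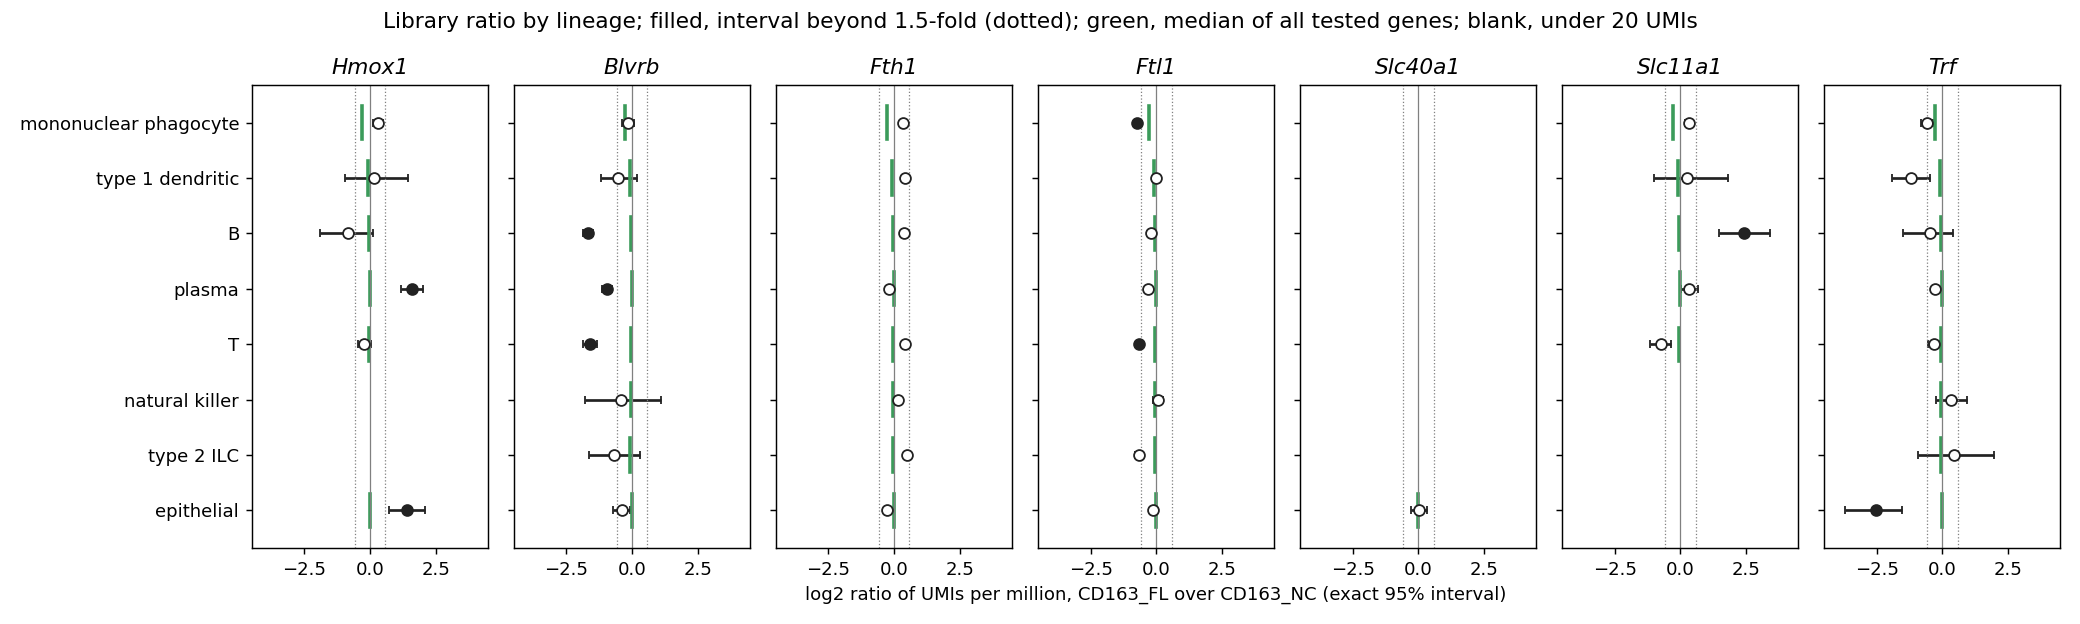
Log2 ratio of CPM, CD163_FL over CD163_NC, with exact 95% intervals, for 7 genes in 8 lineages; filled points have intervals beyond 1.5-fold (dotted lines), green ticks mark the median of all tested genes, and lineages with under 20 UMIs are blank. Blvrb lies under 0 in all 8 lineages, with intervals that include 0 outside B, plasma, T and epithelial cells. It is filled in B, plasma and T cells, while Fth1 lies within the dotted lines in every lineage.

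Outside mononuclear phagocytes 8 ratios of members were called, all in B cells, plasma cells, T lymphocytes and epithelial cells. None was called in type 1 dendritic cells (4.44% of all genes called higher and 5.46% lower), natural killer cells (3.83% and 4.82%) or type 2 innate lymphoid cells (4.08% and 5.82%). Blvrb was lower in CD163_FL in B cells (-1.69, -1.88 to -1.50, where 8.08% of genes were called lower), in plasma cells (24.4 and 12.7 CPM, -0.94, 5.80% called lower) and in T lymphocytes (10.4 and 3.41, -1.61, 11.3% called lower). Its ratio was under 0 in all 8 lineages. The interval included 0 in mononuclear phagocytes, type 1 dendritic cells, natural killer cells and type 2 innate lymphoid cells. The share of all genes under 0 in all 8 lineages was not computed. In T lymphocytes of CD163_NC 10 cells held 38.9% of the Blvrb UMIs and 1 cell held 43. B cells were 22.6% of kept cells in CD163_NC and 8.15% in CD163_FL, and the 7 B cell markers summed to 96.7 CPM in T lymphocytes of CD163_NC and to 18.7 in those of CD163_FL, with none of the 7 at 0 in either library. In plasma cells the same markers summed to 431 and 364, again with none at 0. Their part in the ratios of Blvrb was not tested. With clusters in place of gates the ratio in T lymphocytes was -0.93 and was not called, and after thinning neither T lymphocytes (-0.89) nor plasma cells (-1.27) kept the call.

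Ftl1 was lower in T lymphocytes of CD163_FL (690 and 437 CPM, -0.66, -0.69 to -0.63, with 11.3% of genes called lower there and 4.89% higher), a call that was lost with called doublets kept (-0.60), with centring on the median (-0.61) and after thinning (-0.65). Hmox1 was higher in CD163_FL in plasma cells (2.12 and 6.38 CPM, 1.59, 1.18 to 2.02, 5.96% of genes called higher), and there the 11 mononuclear phagocyte markers summed to 3466 and 1585, mostly Ly6c2 (3409 and 1554). After thinning that ratio was 1.42 and was not called. Hmox1 was also higher in epithelial cells of CD163_FL (6.86 and 18.2, 1.41, 0.74 to 2.09, 5.00% called higher), where 10 of 89 cells held 78.7% of its UMIs. Slc11a1 was higher in B cells of CD163_FL (0.943 and 5.02, 2.41, 1.46 to 3.42, 4.29% called higher) on 15 and 28 UMIs, of which 10 cells held 82.1% in CD163_FL and 1 cell held 11. It was 1.81 and not called with clusters in place of gates. The 11 mononuclear phagocyte markers summed to 336 and 154 in B cells, with none at 0, and their part was not tested. Trf was lower in epithelial cells of CD163_FL (20.2 and 3.49, -2.53, -3.70 to -1.55, 4.10% called lower) on 100 and 9 UMIs. In CD163_NC 10 of 279 epithelial cells held 58% of these UMIs and 1 cell held 16.

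Mononuclear phagocytes were split by the complement genes C1qa, C1qb and C1qc, which mark mature tissue macrophages. C1q-positive cells, with at least 3 UMIs from at least 2 of these genes, numbered 133 in CD163_NC and 159 in CD163_FL, against 418 and 1007 C1q-negative cells. In CD163_NC Hmox1 was higher in C1q-positive cells (119 CPM, 100 to 141) than in C1q-negative cells (60.1, 51.1 to 70.3), a log2 ratio of 0.99 (0.64 to 1.33). In CD163_FL it was lower in C1q-positive cells (63.2, 50.8 to 77.8) than in C1q-negative cells (103, 95.3 to 111), a ratio of -0.71 (-1.04 to -0.38). The log2 ratios differed between the libraries by -1.69 (-2.15 to -1.23, counting error only), and by -2.07 after thinning. The sums rest on few cells: 10 cells held 48.5% and 50.6% of the Hmox1 UMIs of C1q-positive cells in CD163_NC and CD163_FL. As shares of cells with a UMI the reversal was not seen before thinning, with 39.8% of C1q-positive and 24.9% of C1q-negative cells in CD163_NC and 29.6% and 23.6% in CD163_FL. After thinning the shares were 8.66% (4.40 to 15.0) and 3.95% (2.23 to 6.43) in CD163_NC and 4.46% (1.81 to 8.97) and 6.55% (5.09 to 8.27) in CD163_FL, with overlapping intervals in both libraries. Blvrb did not reverse: it was higher in C1q-positive cells in both libraries, at 102 against 48.9 in CD163_NC and at 84.6 against 52.5 in CD163_FL.

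The other members differed less between the subsets. Fth1 stood at 10603 CPM in C1q-positive and at 8288 in C1q-negative cells of CD163_NC, and at 12369 and 11161 in CD163_FL. Ftl1 stood at 3590 and 2984 in CD163_NC and at 2011 and 1859 in CD163_FL, and was called lower in CD163_FL in both subsets (-0.84 and -0.68), where 8.59% and 16.1% of genes were called lower. No other member was called in either subset, and 8.95% and 8.45% of genes were called higher. Slc11a1 was higher in C1q-positive cells of CD163_NC (159 against 111) and had overlapping intervals in CD163_FL (151 against 159). Trf was 102 against 68.6 in CD163_NC and 54.7 against 51.6 in CD163_FL. The ferritin ratio was alike in both subsets, 2.95 and 2.78 in CD163_NC and 6.15 and 6.003 in CD163_FL. The 7 neutrophil markers summed to 1457 and 4283 CPM in C1q-positive and C1q-negative cells of CD163_NC and to 85.3 and 124 in CD163_FL, and the 9 genes of dissociation stress to 10654 and 9191 and to 3629 and 3963. Among C1q-positive cells of CD163_FL 3 of the 7 neutrophil markers were at 0, namely Cxcr2, Mmp9 and G0s2. The 7 C1q macrophage markers summed to 6804 CPM in C1q-positive cells of CD163_NC and to 2283 in those of CD163_FL. The 7 inflammatory monocyte markers summed there to 10536 and 18848. In C1q-negative cells these sums were 271 and 214 and then 14310 and 15166. The C1q-positive cells were thus not alike in the 2 libraries. The part of these marker sets in the difference of Hmox1 was not tested.

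**Figure D4:**
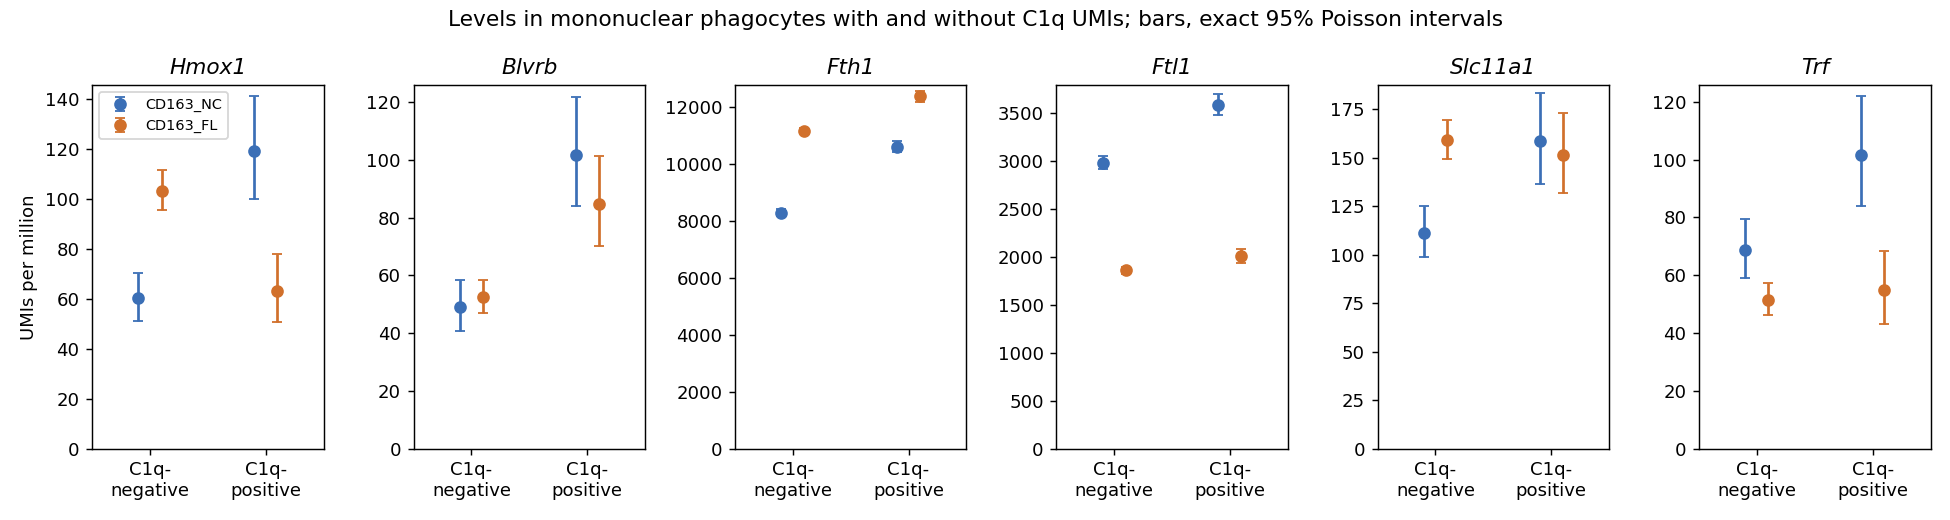
CPM (linear axis from 0) of 6 members in C1q-negative and C1q-positive mononuclear phagocytes, CD163_NC in blue and CD163_FL in orange, with exact 95% Poisson intervals; Slc40a1 is left out at 4 and 0 UMIs. Hmox1 is highest in C1q-positive cells of CD163_NC (119) and in C1q-negative cells of CD163_FL (103).

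The rest of the pathway was described by 12 lists with 63 genes outside the members, of which 52 were tested in mononuclear phagocytes. The lists were drawn up with earlier results of these data known, so counts of calls within them are only a description. Of these 17 were called higher and 9 lower in CD163_FL, where 8.59% of all genes were called higher and 17.0% lower, so the share of lower calls was near the background. Their median ratio was 0.03 beside -0.28 over all genes tested. With the members included the counts were 17 and 10, and they were 19 and 7 with the ratios centred on the median and 8 and 4 after thinning. The share of all genes called was not computed with centring or thinning, so those counts have no background beside them. All 8 listed targets of Nfe2l2, the transcription factor of the oxidative and electrophile response that also controls Hmox1 and ferritin genes, were called higher, with a median ratio of 1.93. After thinning 5 of them were, and among C1q-positive cells alone 6. In the same gate the 7 C1q macrophage markers summed to 2267 CPM in CD163_NC and to 590 in CD163_FL and the 5 Spp1 macrophage markers to 89.1 and 665, with none at 0, and Spp1-positive cells numbered 9 and 171. Without the Spp1-positive cells, an alternative chosen after the data were seen, 8 targets were called higher. Slc7a11, the cystine importer, went from 170 to 1682 CPM (ratio 3.31). Srxn1, which repairs oxidised peroxiredoxins, went from 8.03 to 72.5 (3.17), Txnrd1, a thioredoxin reductase, from 175 to 683 (1.962), and Gclm and Gclc, the subunits of the enzyme that begins glutathione synthesis, from 9.90 to 37.0 (1.90) and from 27.6 to 85.7 (1.64). Nqo1, a quinone reductase, had 3 and 47 UMIs, a ratio of 2.92 (1.28 to 5.25). Nfe2l2 itself had a ratio of 0.03 (442 and 450 CPM), while Keap1, which targets the Nfe2l2 protein for decay, was lower, from 36.4 to 10.6 (-1.78). Mafg, a partner of Nfe2l2 on DNA, was higher, from 39.6 to 125 (1.65). Of the same list of transcription factors Maff was also called higher (0.79), while Mafk (0.03) and Bach1 (0.31) were not called. These were named after their values were seen. The part of Nfe2l2 in the ratios of the targets was not tested. Hmox1 and the ferritin genes, which Nfe2l2 also controls, stood outside the list of targets. Hmox1 (0.29) and Fth1 (0.34) were not called and Ftl1 (-0.75) was called lower. Centred on the median of all genes, Hmox1 was at 0.58 and not called, Fth1 at 0.62 and called higher, and Ftl1 at -0.46 and not called. In type 1 dendritic cells (4.44% of all genes called higher) and epithelial cells (5.00%) 3 of 8 tested targets were called higher. It was 1 of 6 in B cells (4.29%), 1 of 7 in plasma cells (5.96%) and 1 of 8 in T lymphocytes (4.89%). It was 0 of 5 in natural killer cells (3.83%) and 0 of 6 in type 2 innate lymphoid cells (4.08%). In the latter 1 was called lower, beside 5.82% of all genes. Counts of 0 or 1 among so few genes are not read as results.

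In all, 4 of the targets carry in their promoters the core letters TGACNNNGC of the antioxidant response element, to which Nfe2l2 binds. The windows are shown because they hold these letters, and capitals mark the match. All 8 listed targets were called higher, so their shared direction does not set these 4 apart. Promoters are the RefSeq windows of GRCm38.p6 from 250 bases before to 50 after the start, and both strands were searched.
Gclm, chr3:122245412-122245441, minus strand: tcgtgagagtTGACGGTGCgcccgggagcg
Txnrd1, chr10:82859103-82859132, minus strand: cgtgtcagaaTGACAAAGCaaaaatccagt
Srxn1, chr2:152105541-152105570, minus strand: tgtctcactcTGACCTAGCtgcccactgcc
Prdx1, chr4:116685455-116685484, minus strand: ctacgggggaTGACTCAGCgctttccctgg
The letters were found in 4 of the 9 promoters that the table holds for 7 of the targets, in 0 of the 6 promoters of 4 members (Blvrb, Fth1, Ftl1 and Slc11a1), and in 12.4% of all 32851 promoters. The promoters of Slc7a11 (ratio 3.31), Nqo1 (2.92) and Sqstm1 (0.87) did not hold the letters, and Gclc had no promoter to search. Prdx1, whose promoter holds the letters, had a ratio of 1.24. A match here is not a measured site.

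Among the enzymes of haem breakdown, those beside the members were lower in CD163_FL. Hmox2, the constitutive haem oxygenase, went from 94.5 to 29.7 CPM (-1.67, -1.92 to -1.43) and Blvra, the main biliverdin reductase, from 28.1 to 11.2 (-1.32, -1.75 to -0.90), while Hmox1 and Blvrb were not called. After thinning Hmox2 was at -1.07 and was not called. None of the 8 tested genes of haem synthesis was called. In mononuclear phagocytes 8.59% of all genes were called higher and 17.0% lower, so counts in the short lists here are not read as results. Of iron uptake and vesicle transport, Slc39a14, a metal importer of the cell surface, went from 15.5 to 65.3 (2.07) and Slc11a2, the divalent metal transporter of endosomes, from 42.6 to 114 (1.43), and Steap3, an endosomal iron reductase, from 4.82 to 1.29 (-1.90, on 18 and 10 UMIs; not called with stricter gates, when centred or without Spp1-positive cells). Slc25a37, which brings iron into mitochondria, went from 29.7 to 91.5 (1.62). After thinning Slc25a37 (0.99), Slc11a2 (1.07) and the Nfe2l2 target Gclc (1.27) were not called. Tfrc, the receptor of transferrin, had a ratio of -0.30 (-0.63 to 0.03) and was not called. Beside ferroportin, Hfe, which takes part in iron sensing, went from 31.6 to 6.32 (-2.32) and Cp, a ferroxidase, from 10.2 to 0.516 (-4.30, on 38 and 4 UMIs). Of the 3 iron regulatory genes Ireb2 and Fbxl5 were called higher, named here after their values were seen. Spic, the transcription factor of red pulp macrophages, had 22 and 112 UMIs, a ratio of 1.30 (0.63 to 2.03), which was not called with clusters in place of gates (1.12), with the reduced library total (1.25) or without cells with an S100a8 or S100a9 UMI (1.45).

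The list of iron-binding defence proteins held Lcn2 and Ltf, both lower in CD163_FL, and Acod1, an enzyme and not an iron binder, which was higher. Acod1, the itaconate-forming enzyme of activated macrophages, went from 396 to 2821 CPM (2.83). Lcn2 and Ltf, which sequester bacterial iron carriers and iron, went from 170 to 3.48 (-5.61) and from 87.0 to 4.52 (-4.27). Both are granule genes of neutrophils, and they stood at 50.5 and 24.6 in T lymphocytes of CD163_NC and at 0.169 and 0.271 in those of CD163_FL. The 7 neutrophil markers summed to 3420 CPM in mononuclear phagocytes of CD163_NC and to 117 in those of CD163_FL, mostly Csf3r (103), with none at 0 in either library. Without phagocytes that held a UMI of S100a8 or S100a9, an alternative chosen after the data were seen that left 186 of 551 cells in CD163_NC and 1130 of 1166 in CD163_FL, Lcn2 was at -2.47 and Ltf at -1.27, the latter not called, while Slc7a11 was at 3.32, Txnrd1 at 1.93, Hmox2 at -1.81, Ftl1 at -0.89 and Hmox1 at 0.35. That setting removed unequal shares of the libraries, so its values describe the cells left. There 15 pathway genes were called higher and 7 lower, and the share of all genes called was not computed. The 9 genes of dissociation stress summed to 9638 CPM in phagocytes of CD163_NC and to 3902 in those of CD163_FL, with none at 0, and their part in these ratios was not tested. Of the 6 erythroid markers found among the listed genes 4 were at 0 in phagocytes of CD163_NC and 6 in those of CD163_FL.

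**Figure D5:**
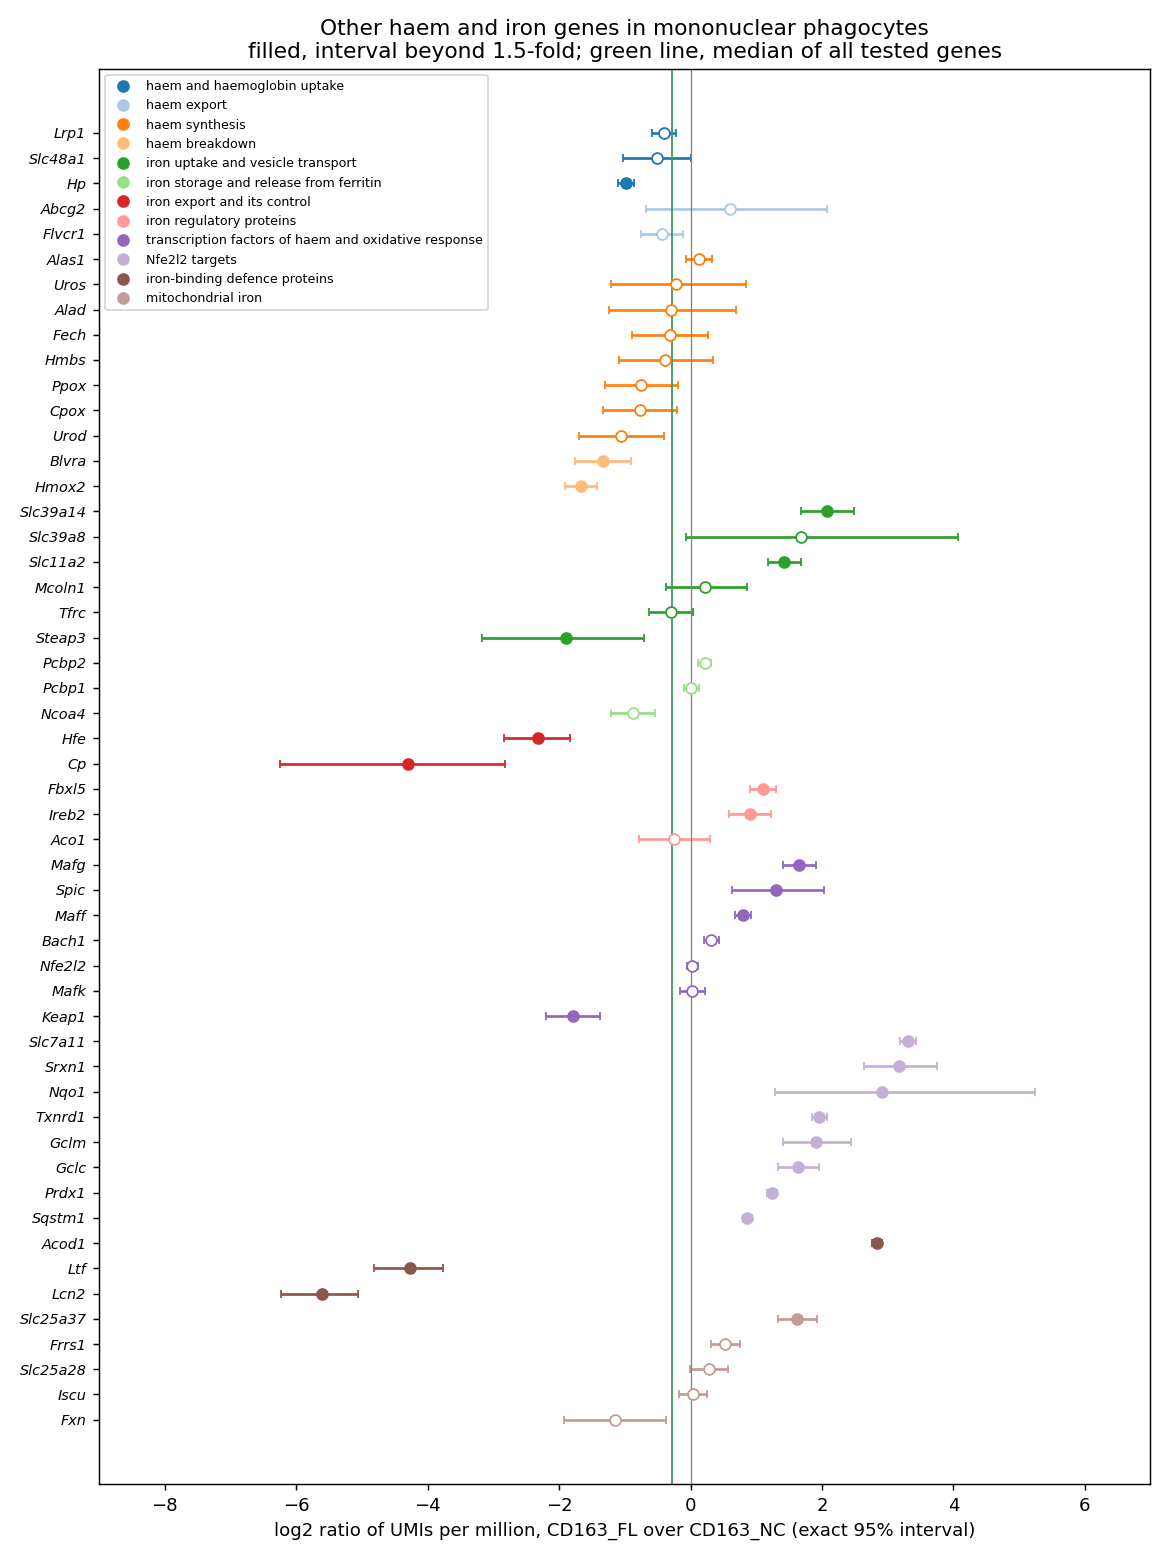
Log2 ratio of CPM in mononuclear phagocytes, CD163_FL over CD163_NC, with exact 95% intervals, for the tested pathway genes outside the members, coloured by list; filled points have intervals beyond 1.5-fold and the green line marks the median of all tested genes (-0.28). All 8 listed Nfe2l2 targets lie to the right, and Lcn2, Ltf and Cp lie farthest to the left. The lists were drawn up with earlier results of these data known.

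The pattern of each member was compared with those of 7247 genes over 21 points, each a gate of at least 50 cells in 1 library, by Pearson's correlation of log2(CPM + 1). The points share libraries and free RNA, so this is a description. The most like genes were Ccl2 for Hmox1 (0.89, then Rsad2 and Vcan), Carmil1 for Blvrb (0.84, then Rufy3 and Asph), Clcn4 for Fth1 (0.90, then Mfsd1 and Nampt) and Grn for Ftl1 (0.88, then Atp6v0c and Rassf4). They were Dstn for Slc40a1 (0.94, then Agpat2 and Sort1), Cd300ld for Slc11a1 (0.92, then 4930430E12Rik and Fcgr4) and Gas7 for Trf (0.75, then Man1c1 and Fndc3b). Between single mononuclear phagocytes Fth1 and Ftl1 correlated at 0.58 in 551 cells of CD163_NC and at 0.63 in 1166 cells of CD163_FL, and at 0.39 and 0.45 after thinning. The other 14 pairs of members other than Slc40a1 ran from 0.03 to 0.30 in CD163_NC and from -0.004 to 0.23 in CD163_FL, which in counts this sparse is no finding.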

How the data were processed

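The deposited values are whole-number counts of UMIs per gene and barcode, not normalized, written by Cell Ranger 7.1.0 per the file headers. The submitters' processing notes name mm10 and Seurat 4. The sources used here name no aligner settings, annotation release or ambient correction. Barcodes needed at least 500 UMIs, 200 genes and at most 10% mitochondrial UMIs, which left out 8 and 22 and then 370 and 869. Scrublet called 2.47% and 4.40% as doublets, under the 8.31% and 12.2% expected, so some stayed; called ones were removed. Gates took the list with the largest share of markers detected, a rule set after the files were seen, and tied cells stayed ungated. Clusters came from scanpy 1.11.5 under Python 3.11.15, without the members. With 1 library per group no test between groups was made; the call rule was tested on simulated data. The members and lists were chosen with earlier results of these data known. Named were the 7 members, at most 20 called pathway genes by size, and the 3 most like genes per member among those with at least 500 UMIs and 50 CPM in a gate. Alternatives covered depth, doublets, cell filters, gates, scaling, library total, free RNA and clusters. The erythroid marker Ahsp had no listed gene. Protein sequences were not used here.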

Additional observations from a re-analysis of the deposited data

Results flagged for a closer look

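Among the 8 lineages, the C1q subsets and the CD4 and CD8 subsets of T lymphocytes, ratios of 3 members of CD163_FL over CD163_NC had intervals on opposite sides of 0 in different cells. The differences between these cells were not tested against replicates, with 1 library per group. Hmox1 had a log2 ratio of -0.91 in C1q-positive mononuclear phagocytes and of 0.78 in C1q-negative ones, a difference of -1.69 (-2.15 to -1.23) by counting error only. It had a ratio of -0.67 in CD4 T lymphocytes, on 150 and 155 UMIs, and of 0.76 in CD8 T lymphocytes, on 31 and 242 UMIs, neither called. Slc11a1 had a ratio of 2.41 in B cells, on 15 and 28 UMIs, and of -0.75 in T lymphocytes, which was -0.02 with called doublets kept. Fth1 had a ratio of 0.48 in type 2 innate lymphoid cells and of -0.29 in epithelial cells, both within 1.5-fold.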

How the results depend on the processing

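No paired analysis was possible because each group has 1 library. For 83 results under 16 settings, 712 alternative values were computed; 593 lay within the main interval or 1.5 times the main count, 119 moved and 0 called values changed sign. Under the subtraction of the T lymphocyte level only Hmox1, Slc11a1 and Trf gave values.

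In mononuclear phagocytes, thinning to 1000 UMIs gave Hmox1 0.56, Fth1 0.29 and Ftl1 -0.82, with 8 pathway genes higher and 4 lower, from fewer UMIs. Centring on the median of all genes gave Hmox1 0.58, Blvrb 0.13, Fth1 0.62, Ftl1 -0.46, Slc11a1 0.61 and Trf -0.31. C1q-positive cells alone gave Hmox1 -0.91, Fth1 0.22, Ftl1 -0.84, Slc11a1 -0.0675 and Trf -0.89, and C1q-negative cells alone gave Hmox1 0.78, Blvrb 0.10, Fth1 0.43, Ftl1 -0.68 and Slc11a1 0.52. Fth1 was 0.30 with doublets kept, 0.37 with stricter gates, 0.30 with the reduced library total and 0.37 with clusters. Ftl1 was -0.71 with stricter gates and -0.79 with the reduced total. Without phagocytes with an S100a8 or S100a9 UMI, Fth1 was 0.26, Ftl1 -0.89, Slc11a1 0.49 and the log2 change of the ferritin ratio 1.16 in place of 1.09. Adding Ftl1-ps1 to Ftl1 gave 1.08, and leaving out Spp1-positive cells gave Hmox1 0.42, Fth1 0.28, Ftl1 -0.80 and 17 pathway genes higher and 9 lower. The last 3 settings, and the thinned C1q contrast, were chosen after the data were seen; other causes of these moves were not tested. The share of all genes called was not computed under these settings, so their pathway counts have no background beside them. Intervals cover counting error only, and 1 library per group leaves the spread between mice unmeasured.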
